A study of Homo sapiens with 8 samples.

Results

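The FGF receptor family of T47D cells, an established hormone-receptor-positive line of luminal breast cancer, was followed across 4 plasmid conditions. Its 5 members, FGFR1, FGFR2, FGFR3, FGFR4 and FGFRL1, were taken by symbol from a table of 28859 genes, and all 5 were among the 14881 genes tested. The series compared cells carrying a control plasmid (EV) with cells expressing HA-tagged GATA3, either wild type (wt) or in 1 of the truncated forms named TR1 and TR2. GATA3, a zinc-finger transcription factor, maintains luminal cells of the mammary gland and is often mutated in breast tumours. Each of the 4 groups had 2 libraries of total RNA made with a strand-specific kit. All cells were of the same line, so every group also held the GATA3 of the T47D genome. The labels describe neither the ends of TR1 and TR2 nor how or for how long the plasmids were expressed, and they do not say whether the replicates came from separate cultures. The p-values therefore measure only the spread between these libraries, which may be technical.

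FGF receptors are receptor tyrosine kinases of the cell surface that bind fibroblast growth factors together with heparan sulfate or, for the endocrine factors, a Klotho protein. Ligand binding pairs the receptors, and their kinase domains signal through FRS2 to RAS and ERK, through PLC-gamma and through PI3 kinase. FGFR1 to FGFR4 carry the kinase domain, whereas FGFRL1 binds the factors but has a short intracellular tail without it. In epithelium, splicing gives FGFR2 and FGFR3 the IIIb form of the ligand-binding domain, which answers to factors made by the stroma. The gene counts used here do not separate splice forms.

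Between 13292861 and 19572394 reads per library fell on genes. Values are the authors' normalised read counts, and differences are log2 fold changes of normalised count + 1. Total GATA3 counts, which do not separate plasmid from genomic transcripts, were 13726 and 12676 in EV and 13555 and 13833 in wt. They were 9506 and 8638 in TR1, and 10235 and 10588 in TR2. The wt level did not pass against EV (limma adjusted p = 0.743). TR1 was lower than EV (0.00149) and wt (0.000539). TR2 was lower than wt (0.0104), a call lost in 6 of 17 alternative analyses, and did not pass against EV (0.0578). A total count of this kind does not check the plasmid labels. All 8 luminal markers listed were detected, with summed normalised counts of 147469 to 153653 in EV, 150244 to 152452 in wt, 167734 to 182693 in TR1 and 157198 to 164189 in TR2. No leukocyte marker had more than 3 reads in a library. The basal and myoepithelial list, 2 of 4 genes of which had more than 3 reads, summed to 979 to 1060 in EV, 873 to 960 in wt, 3064 to 3413 in TR1 and 1024 to 1102 in TR2. Of the 2 basal genes tested, 1 was higher and 0 lower in TR1 than in EV (limma, adjusted p under 0.05). Of the 8 luminal genes, 2 were higher and 1 lower in that comparison. Over all genes tested, 4.91% were higher and 5.69% lower there. Of 7 fibroblast markers in the table, 5 had more than 3 reads, and the list summed to 396 to 398 in EV, 411 to 447 in wt, 327 to 357 in TR1 and 272 to 296 in TR2. These sums rest mostly on COL1A1. Of the 4 fibroblast markers tested, DCN and COL3A1 were higher and COL1A1 lower in TR1 than in EV and than in wt (limma, adjusted p under 0.05). DCN was at 0 in the EV and wt libraries and had 66 and 70 reads in the TR1 libraries, while COL1A2 was at 0 in every library. The endothelial list, 1 of 3 genes of which had more than 3 reads, summed to 1.22 to 3.22 in EV, 0 to 1.93 in wt, 5.86 to 10.7 in TR1 and 1.80 to 8.35 in TR2. The part of these lists in the TR1 results below was not tested.

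FGFR2 was lower with wt and higher with TR1 than in EV, and of the 5 members it had the largest differences in wt against EV and in both comparisons of a truncated form with wt. The gene (ENSG00000066468) lies on the reverse strand at chr10:121478334-121598458 of GRCh38. RefSeq lists 5 FGFR2 starts, and the 250 bases before each were searched on both strands for GATA, the core of the sequence bound by GATA factors, read as GATA or TATC. The windows of start 1 and start 5 held 0 and 1 matches, those of start 3 and start 4 held 1 and 2, and that of start 2 held 4. Of 35116 RefSeq starts of 27305 genes, 45.6% had at least 1 match in a window of this length. Starts 3 and 4 are shown because they lie nearest to start 1 among the windows that hold no annotated exon, and the FGFR3 start is shown beside them because FGFR3 was the other member that passed in TR1 against EV. Each runs 5′ to 3′ on the strand of the gene (RefSeq, GRCh38.p14), with GATA or TATC in capitals.
FGFR2 start 3, chr10:121596646-121596895, reverse strand: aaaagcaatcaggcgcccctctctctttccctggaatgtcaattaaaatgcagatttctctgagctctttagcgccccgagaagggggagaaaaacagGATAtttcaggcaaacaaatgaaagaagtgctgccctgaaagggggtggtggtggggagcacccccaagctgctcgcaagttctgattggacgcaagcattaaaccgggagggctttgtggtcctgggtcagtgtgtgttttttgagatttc
FGFR2 start 4, chr10:121594259-121594508, reverse strand: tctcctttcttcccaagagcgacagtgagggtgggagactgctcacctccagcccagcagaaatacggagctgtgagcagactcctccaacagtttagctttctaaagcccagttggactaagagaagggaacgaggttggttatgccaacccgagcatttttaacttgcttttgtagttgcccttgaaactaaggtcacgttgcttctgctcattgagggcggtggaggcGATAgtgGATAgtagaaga
FGFR3 start 1, chr4:1793043-1793292, forward strand: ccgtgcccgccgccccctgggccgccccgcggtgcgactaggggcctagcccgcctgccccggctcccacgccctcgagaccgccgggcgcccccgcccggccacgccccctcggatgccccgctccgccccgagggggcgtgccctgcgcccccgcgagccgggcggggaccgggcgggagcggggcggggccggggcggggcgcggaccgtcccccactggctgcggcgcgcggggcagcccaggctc
In FGFR2 start 3 the match begins 152 bases before the start. In start 4 the matches begin 19 and 12 bases before it, so that the copies lie 3 bases apart. The FGFR3 window has a GC content of 86.8% and no match, and FGFR2 start 1, not shown, has 78.4% and no match. The FGFRL1 window held 2 matches and the FGFR4 windows 0 and 1, and neither gene passed in any of the 6 comparisons. A match describes the letters of the window and not binding, which was not measured here.

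The normalised read count of FGFR2 was 1459 and 1315 in the EV libraries, 803 and 838 in wt, 2272 and 1992 in TR1, and 1652 and 1822 in TR2. The wt libraries were the lowest and the TR1 libraries the highest, and no group overlapped another. In bulk RNA, a change in the share of cells that express a gene and a change in RNA per cell cannot be told apart. Against EV, FGFR2 fell by 0.76 with wt on the log2 scale (SE 0.09, limma adjusted p = 0.00588, n = 2 and 2), to 0.592 of the EV level. It was the only 1 of the 5 members past an adjusted p of 0.05 in that comparison, in which 1.69% of the 14881 genes passed. The FGFR2 call was lost without EV replicate 1 (limma adjusted p = 0.0689), wt replicate 1 (0.0893) or wt replicate 2 (0.0729).

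With TR1, FGFR2 rose 1.54-fold over EV (log2 fold change 0.62, SE 0.09, limma adjusted p = 0.00412, n = 2 and 2), and this call held in all 17 alternative analyses. Here 2 of the 5 members passed, FGFR2 and FGFR3, and 10.6% of all genes did. With TR2, FGFR2 stood 1.25 times as high as in EV (log2 fold change 0.32, 95% interval 0.11 to 0.54), which did not pass over all genes (limma adjusted p = 0.166). None of the 5 members passed in TR2 against EV, where 0.921% of all genes did. In that comparison 4 members had an unadjusted limma p under 0.05, as did 17.2% of all genes, and a fit of the recovered reads with voom weights also called 0 members.

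Set against wt, both truncated forms had more FGFR2. The level was 2.59-fold higher in TR1 (log2 fold change 1.37, SE 0.09, limma adjusted p = 3.17e-05) and 2.12-fold higher in TR2 (log2 fold change 1.08, SE 0.09, limma adjusted p = 0.000359), with 2 libraries in each group. Both calls held in all 17 alternatives. These comparisons share the wt libraries, and those against EV share the EV libraries. In TR1 against wt, 3 of the 5 members passed, beside 15.0% of all genes, and in TR2 against wt 2 of 5 passed, beside 5.24%. Between the truncated forms, FGFR2 was lower in TR2 by a log2 fold change of -0.29 (95% interval -0.50 to -0.08), which did not pass (limma adjusted p = 0.262). No member passed in TR2 against TR1, where 1.22% of all genes did. There 2 members, FGFR2 and FGFR3, had an unadjusted p under 0.05, beside 10.1% of all genes, and the voom fit called 0. Without TR1 replicate 2 the FGFR2 difference between the truncated forms passed (limma adjusted p = 0.0134).

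**Figure D1:**
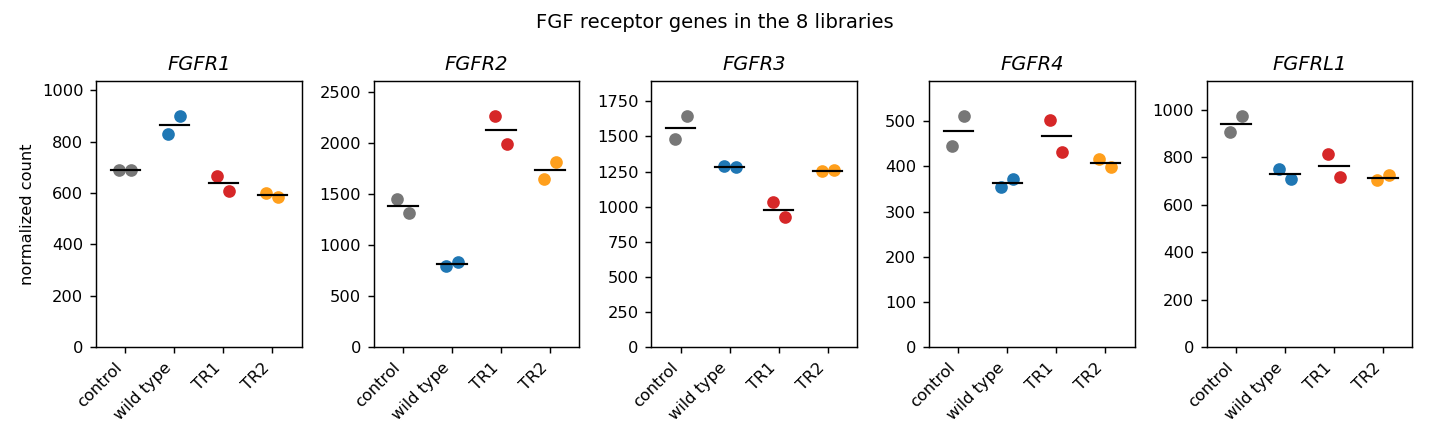
Normalised read counts (vertical axis) of the 5 FGF receptor genes in each of the 8 libraries, grouped by plasmid (horizontal axis; control is EV), with points for libraries and black lines at the mean of the 2 libraries of a group. Each gene has its own vertical scale from 0. FGFR2 ran from 803 in a wt library to 2272 in a TR1 library, while FGFR4 stayed between 354 and 512.

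FGFR1 ran the other way between wt and the truncated forms. FGFR1 (ENSG00000077782, reverse strand, chr8:38400215-38468834) is the family member most often amplified in breast cancer. Its normalised read count was 688 and 689 in EV, 830 and 900 in wt, 666 and 610 in TR1, and 601 and 586 in TR2. Both wt libraries lay above all others, and both TR2 libraries below all others. FGFR1 was lower in TR1 than in wt (log2 fold change -0.44, SE 0.08, limma adjusted p = 0.00933) and lower in TR2 than in wt (-0.54, SE 0.08, limma adjusted p = 0.00731), with 2 libraries in each group.

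Against EV no FGFR1 difference passed. It stood 1.25 times as high in wt (limma adjusted p = 0.117), and the log2 fold changes in TR1 and TR2 were -0.11 (limma adjusted p = 0.406) and -0.21 (limma adjusted p = 0.263). The log2 difference between TR2 and TR1 was -0.10 (95% interval -0.29 to 0.09). The call in TR1 against wt was lost without wt replicate 2 (limma adjusted p = 0.110) and when only those 4 libraries were fitted (0.0666). The call in TR2 against wt was lost without wt replicate 1 (0.0503), wt replicate 2 (0.106), TR2 replicate 1 (0.0710) or TR2 replicate 2 (0.0867).

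FGFR1 is the only member whose span overlaps other annotated genes, 2 on its own strand and 2 on the opposite strand. Among the latter is LETM2. LETM2 had mean normalised counts of 147 in EV, 196 in wt, 117 in TR1 and 119 in TR2, and it was lower than in wt in TR1 (log2 fold change -0.75, limma adjusted p = 0.0108) and in TR2 (-0.71, limma adjusted p = 0.0282). The libraries were stranded, but the strand setting of the counting is not given in the sources used here. The share of FGFR1 reads that lie in any of these overlaps, on either strand, was not tested.

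FGFR3 (ENSG00000068078, forward strand, chr4:1793293-1808872) was highest in the control cells. Its normalised read count was 1479 and 1647 in EV, 1287 and 1279 in wt, 1032 and 927 in TR1, and 1253 and 1260 in TR2. All 6 libraries with a GATA3 plasmid lay below both EV libraries, and the TR1 libraries were the lowest. With TR1, FGFR3 fell by 0.67 on the log2 scale to 0.627 of EV (SE 0.08, limma adjusted p = 0.00152, n = 2 and 2), and the call held in all 17 alternatives. The FGFR2 rise and the FGFR3 fall thus stand in the same 4 libraries.

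FGFR3 was also lower in TR1 than in wt (log2 fold change -0.39, SE 0.08, limma adjusted p = 0.0141, n = 2 and 2). That call was lost when only those 4 libraries were fitted (limma adjusted p = 0.0711), without wt replicate 1 (0.106) and without wt replicate 2 (0.105). The FGFR3 differences of wt from EV (log2 fold change -0.28, limma adjusted p = 0.173) and of TR2 from EV (-0.31, limma adjusted p = 0.135) did not pass. Levels in TR2 and wt differed by a log2 value of -0.03, with a 95% interval of -0.22 to 0.16. The TR2 libraries stood above those of TR1 by 0.36 (95% interval 0.17 to 0.55, limma adjusted p = 0.0989), a difference that passed without TR1 replicate 1 (0.00348) or TR1 replicate 2 (0.0428).

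FGFR4 (ENSG00000160867, forward strand, chr5:177086886-177098144), the receptor for FGF19 in liver, had the lowest normalised counts of the family. They were 446 and 512 in EV, 354 and 372 in wt, 502 and 431 in TR1, and 415 and 398 in TR2. The wt libraries were the lowest, and the TR1 and EV libraries overlapped. No FGFR4 difference passed in any of the 6 comparisons. The nearest to passing was TR1 against wt (log2 fold change 0.36, 95% interval 0.10 to 0.61, limma adjusted p = 0.0656), which passed without TR1 replicate 2 (0.00821). For TR1 against EV the log2 fold change was -0.04, with a 95% interval of -0.29 to 0.22.

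FGFRL1 (ENSG00000127418, forward strand, chr4:1009936-1026897), the member without a kinase domain, had normalised counts of 905 and 974 in EV, 751 and 708 in wt, 812 and 718 in TR1, and 706 and 723 in TR2. Every library with a GATA3 plasmid lay below both EV libraries. The log2 fold changes from EV were -0.36 in wt (limma adjusted p = 0.0974), -0.30 in TR1 (limma adjusted p = 0.0669) and -0.39 in TR2 (limma adjusted p = 0.0857), and none passed. The 3 GATA3 groups differed from one another by log2 values between -0.10 and 0.07. In TR1 against EV the difference passed without TR1 replicate 1 (limma adjusted p = 0.00368).

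**Figure D2:**
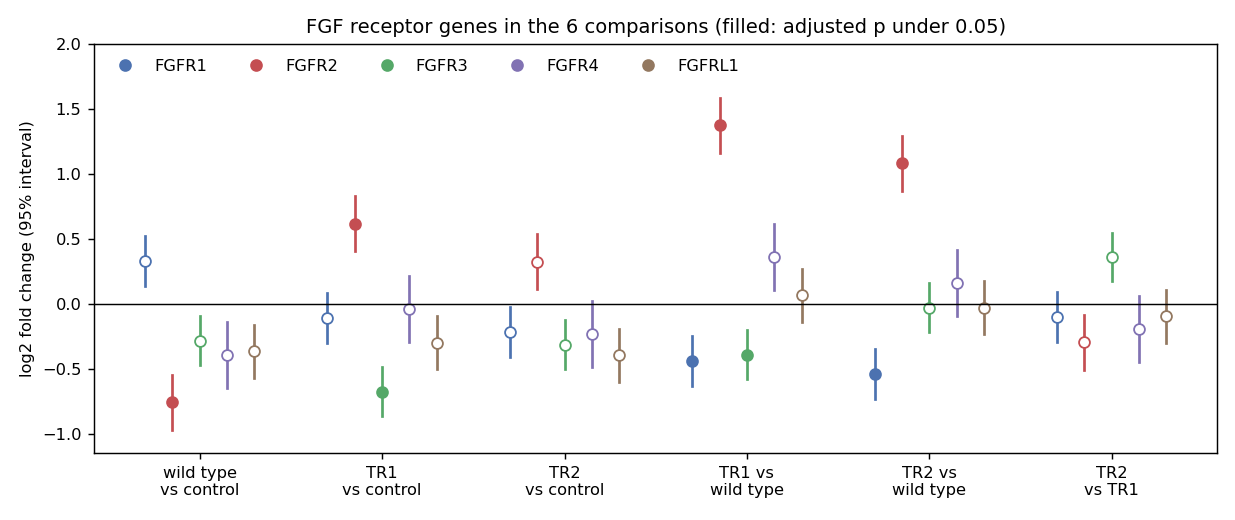
Log2 fold changes (vertical axis) of the 5 FGF receptor genes in the 6 comparisons (horizontal axis; control is EV), with 95% limma intervals as lines and filled points for an adjusted p under 0.05. The FGFR2 values run from -0.76 in wt against EV to 1.37 in TR1 against wt, and no FGFR4 or FGFRL1 point is filled.

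Several calls for the smaller differences changed with whether both TR1 libraries entered the fit, in which all 8 libraries share 1 estimate of spread. The SD of log2 differences between the replicates of a group was 0.443 in TR1, against 0.331 in EV, 0.294 in wt and 0.279 in TR2. This SD covers all genes tested, and its part in these calls was not tested. Fitted on their own 4 libraries, all 5 members passed in wt against EV, as did 1313 of the 14881 genes (251 in the main fit). The limma adjusted p was 0.0206 for FGFR1, 0.0268 for FGFR3, 0.0298 for FGFR4 and 0.0130 for FGFRL1. In TR2 against EV, FGFR2, FGFR3 and FGFRL1 passed in the same way (0.0142, 0.0130 and 0.00512). Over all genes 2115 passed there, against 137 in the main fit. The same members passed without TR1 replicate 1 or TR1 replicate 2, where the number over all genes also rose. No direction of a called difference was reversed in any alternative.

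Levels of different genes were compared as normalised counts per kilobase of the principal transcript. On this scale the order in EV, TR1 and TR2 was FGFR2, FGFR3, FGFRL1, FGFR4 and FGFR1. FGFR2 led with 453 ± 33.3 per kilobase in EV, 696 ± 64.6 in TR1 and 568 ± 39.3 in TR2 (SD, n = 2). In wt, FGFR3 led with 298 ± 1.3 per kilobase and FGFR2 followed with 268 ± 8.1, and FGFR1 (147 ± 8.5) stood above FGFR4 (116 ± 4.2). With the exons of all protein-coding transcripts of a gene merged, FGFR3 led in EV, wt and TR2, and FGFR2 only in TR1. FGFRL1 then stood above FGFR2 in the EV and wt libraries. The place of FGFR2 in the order thus depends on the transcript length used.

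Within a library, FGFR2 made up 35.9% and 31.6% of the summed per-kilobase level of the family in EV and 25.7% and 26.4% in wt. In TR1 it made up 50.2% and 49.9%, and in TR2 42.9% and 45.3%. With the exons of coding transcripts merged, the FGFR2 shares were 21.8% and 18.7% in EV, 14.7% and 15.2% in wt, 33.7% and 33.4% in TR1, and 27.2% and 29.2% in TR2. The order of the 4 groups was the same with both lengths. The ratio of FGFR2 to FGFR1 normalised counts was 2.12 and 1.91 in EV, 0.967 and 0.930 in wt, 3.41 and 3.27 in TR1, and 2.75 and 3.11 in TR2. FGFR1 counts, not corrected for length, thus stood above FGFR2 counts in the wt libraries alone. Per kilobase of principal transcript, the FGFR2 to FGFR1 ratio in wt was 1.86 and 1.79. With the exons of coding transcripts merged, FGFR2 stood at 118 and 123 per kilobase in wt and FGFR1 at 117 and 127. The ratio of FGFR2 to FGFR3 normalised counts was 0.987 and 0.799 in EV, 0.624 and 0.655 in wt, 2.20 and 2.15 in TR1, and 1.32 and 1.45 in TR2. Shares and ratios are given as descriptions, with no test.

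**Figure D3:**
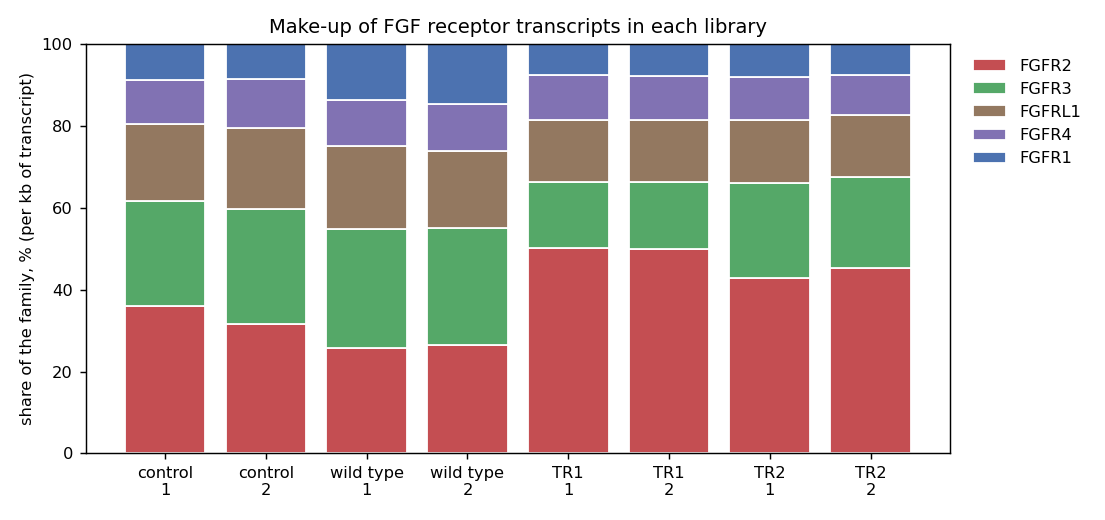
Share of each FGF receptor gene (percent, vertical axis) in the summed normalised count per kilobase of principal transcript of the 5 genes, as stacked bars for each of the 8 libraries (horizontal axis; control is EV). FGFR2 takes 49.9% and 50.2% in the TR1 libraries and 25.7% and 26.4% in the wt libraries, and smaller shares (33.4% to 33.7% and 14.7% to 15.2%) when lengths of merged exons are used.

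Over the 8 libraries, the genes whose log2 values tracked each member most closely among 13278 compared were found by Pearson correlation. For FGFR2 they were ALDH3B1 (r = 0.994), AUTS2 (r = 0.994) and SERPINA1 (r = 0.993), and for FGFR3 they were FOLR1 (r = 0.995), NECAB3 (r = 0.992) and PRSS22 (r = 0.984). For FGFR1 they were HEY2 (r = 0.990), TMC7 (r = 0.985) and KDM4B (r = 0.980). For FGFR4 they were ABR, HM13 and NSMF (r = 0.994, 0.992 and 0.984), and for FGFRL1 LETM1, CNOT3 and FAM131A (r = 0.984, 0.981 and 0.981). The libraries form 4 groups of 2, so these values describe group patterns, and the top of so many correlations is high by selection. AUTS2 shows the FGFR2 pattern on a wider scale, with normalised counts of 3173 and 2740 in EV, 1424 and 1435 in wt, 5535 and 5550 in TR1, and 3984 and 4104 in TR2.

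Genes within 500 kb of each member were also examined, a choice made after the members' values were seen. Of the 3 tested neighbours of FGFR2, none passed in the direction of FGFR2. TACC2 (log2 fold change -0.47, limma adjusted p = 0.0156) and NSMCE4A (-0.35, limma adjusted p = 0.0347) were lower in TR1 than in wt, where FGFR2 was higher. Of 13 neighbours of FGFR3, TACC3 was lower (log2 fold change -0.29, limma adjusted p = 0.0402) and MXD4 higher (0.34, limma adjusted p = 0.0344) in TR1 than in EV. In TR1 against wt, where FGFR3 was also lower, MXD4 and C4orf48 were higher (0.31 and 0.44, limma adjusted p = 0.0371 and 0.0267) and no neighbour was lower. Of 8 neighbours of FGFR1, 1 was higher and 1 lower in TR1 than in wt, and likewise in TR2 against wt. The lower gene was LETM2, in the direction of FGFR1. Of 21 neighbours of FGFR4, 3 were lower in TR1 than in EV. In TR1 against wt 2 of these neighbours were higher and 3 lower, and in TR2 against wt 1 was lower. Of 14 neighbours of FGFRL1, 1 was higher in TR1 than in wt. Over all genes, 10.6% passed in TR1 against EV (4.91% higher and 5.69% lower) and 15.0% in TR1 against wt (7.60% and 7.38%). In TR2 against wt 5.24% passed (2.75% and 2.49%). With shares of this size, a count of 0 among the 3 FGFR2 neighbours cannot tell them from all genes.

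Few FGF ligand transcripts were present in these cells. Of 18 secreted ligands listed, 9 were in the table, none reached the level for testing, and none had more than 4 reads in any library. FGF19 had 0 reads in all 8, which allows a level of up to 3 reads in a library. Among the intracellular FGF homologues, which do not signal through the receptors, FGF12 was tested. Its normalised count was 24.7 and 26.8 in EV, 19.3 and 14.8 in wt, 89.2 and 90.3 in TR1, and 36.9 and 30.6 in TR2. It rose in TR1 against EV (log2 fold change 1.76, SE 0.22, limma adjusted p = 0.00161) and against wt (2.34, SE 0.22, limma adjusted p = 0.000215).

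Of 10 tested co-receptors and ligand carriers, 1 was higher and 2 were lower in TR1 than in EV, and the median log2 fold change was -0.08. Over all genes 4.91% were higher and 5.69% lower in that comparison. Without EV replicate 2 no gene of the list was higher, and the number lower ran from 1, when any single EV, wt or TR2 library was left out, to 3 without either TR1 library. The counts over all genes also rose or fell when single libraries were left out. In the main fit, the medians over all 14881 genes lay between -0.01 and 0.02 in the 6 comparisons. L1CAM, a cell adhesion molecule that can activate FGF receptors, had normalised counts of 318 and 332 in EV, 473 and 453 in wt, 124 and 125 in TR1, and 224 and 228 in TR2. It was lower in TR1 than in EV (log2 fold change -1.37, SE 0.10, limma adjusted p = 7.73e-05) and lower in TR1 and TR2 than in wt (-1.88 and -1.03, limma adjusted p = 8.03e-06 and 0.000628). FGFBP2, of the family of FGF-binding proteins, was at 46.2 and 28.0 in EV, 6.74 and 9.13 in wt, 111 and 97.0 in TR1, and 41.4 and 35.3 in TR2. It was higher than in wt in TR1 (log2 fold change 3.56, SE 0.28, limma adjusted p = 8.05e-05) and in TR2 (2.15, SE 0.28, limma adjusted p = 0.0031). FGFBP2 was lowest in the libraries where FGFR2 was lowest. FGFBP1, of the same family, was also higher in TR1 than in wt (log2 fold change 1.62, limma adjusted p = 0.017), a call lost with no filter (0.0932) or without wt replicate 1 (0.126). GPC1, a glypican, was lower in TR1 than in EV (-0.35, limma adjusted p = 0.0393), a call lost in 10 of 17 alternatives.

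Heparan sulfate genes moved in both directions. Of 10 tested, 1 was higher and 3 were lower in TR1 than in EV, with a median log2 fold change of 0.09, and 2 were higher and 3 lower in TR1 than in wt, with a median of 0.15. Over all genes 4.91% were higher and 5.69% lower in the first comparison and 7.60% and 7.38% in the second. Against EV, the number higher in the list rose without either TR1 library, and the number lower fell without EV replicate 1. Against wt, the number higher fell without wt replicate 1. The numbers over all genes moved likewise in these fits. Leaving out a library left the number lower than wt in the list unchanged or smaller. SULF1, which removes 6-O-sulfate from heparan sulfate and so alters the co-receptor of FGF signalling, had normalised counts of 4158 and 3131 in EV, 1909 and 2045 in wt, 8641 and 9707 in TR1, and 5602 and 6583 in TR2. It rose in TR1 against EV (log2 fold change 1.34, SE 0.13, limma adjusted p = 0.000538) and was higher than in wt in TR1 (2.21, limma adjusted p = 1.63e-05) and TR2 (1.62, limma adjusted p = 0.000294). HS6ST3, which adds such 6-O-sulfates, fell to 18.4 and 10.9 in TR1 from 128 and 84.1 in EV (log2 fold change -2.79, SE 0.32, limma adjusted p = 0.00107). In wt it stood at 199 and 235, and in TR2 at 37.8 and 60.3. EXT1, which builds the chain, was lower in TR1 than in wt (log2 fold change -0.63, limma adjusted p = 0.00364). HS6ST1, a second 6-O-sulfotransferase, was higher in TR1 than in wt (0.50, limma adjusted p = 0.00645), a call lost without wt replicate 1 (0.0724) or when only those 4 libraries were fitted (0.0557).

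Most of the 26 adaptor and relay genes, which link the receptors to RAS, ERK and PI3 kinase, did not pass in any given comparison. In TR1 against EV, 3 were higher and 1 lower, and the median log2 fold change was 0.09. Over all genes 4.91% were higher and 5.69% lower. The number of genes called in the list rose without TR1 replicate 1 and fell without either EV library, as did that over all genes. GAB2, a docking protein for PI3 kinase, rose in TR1 against EV from 559 and 506 to 1120 and 954 (log2 fold change 0.96, SE 0.10, limma adjusted p = 0.000679). PIK3R1, a regulatory subunit of PI3 kinase, rose from 152 and 126 to 242 and 456 (1.26, limma adjusted p = 0.0194). That call was lost in 5 of 17 alternatives, with adjusted p of 0.0655 with no trend, 0.133 with no filter, 0.0802 with only those 4 libraries, 0.0722 without EV replicate 1 and 0.125 without EV replicate 2. The log2 fold change of PIK3R1 was 0.80 to 1.71 when single libraries were left out. PLCG1, the phospholipase bound by the receptors, was lower in TR1 than in EV (-0.43, limma adjusted p = 0.00825), a call lost without EV replicate 2 (0.0766) or when only those 4 libraries were fitted (0.0924). STAT3 was higher in TR1 than in wt (log2 fold change 0.64, SE 0.07, limma adjusted p = 0.000568). FRS2, the docking protein of the FGF receptors themselves, was at 671 and 685 in EV and at 636 and 1215 in the TR1 libraries, which lay on either side of EV.

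Several genes that FGF and ERK signalling is known to raise were lower with TR1. Of 16 tested targets and feedback inhibitors, 5 were lower and 0 higher in TR1 than in EV, with a median log2 fold change of -0.26, and 7 were lower and 0 higher in TR1 than in wt, with a median of -0.45. The 5 were DUSP4, DUSP5, SPRY1, SPRED2 and the cyclin gene CCND1, and DUSP6 and MYC joined them in the comparison with wt. Against EV, MYC was not lower: its log2 fold changes over the alternatives were 0.17 to 0.34 in TR1 and 0.15 to 0.32 in TR2. Those of DUSP6 lay between -0.92 and -0.52 in TR1 and between -1.12 and -0.71 in TR2. In the main fit neither gene passed against EV (limma adjusted p = 0.145 and 0.287 for MYC, 0.0890 and 0.131 for DUSP6). In TR2 against wt, 4 were lower and 0 higher (DUSP4, DUSP6, CCND1 and MYC), with a median of -0.27. In wt against EV, 1 was higher and 0 lower, with a median of 0.17. Over all genes, 4.91% were higher and 5.69% lower in TR1 against EV, 7.60% and 7.38% in TR1 against wt and 2.75% and 2.49% in TR2 against wt. Leaving out single libraries moved the count of lower genes between 2 and 7 in TR1 against EV, between 3 and 8 in TR1 against wt and between 1 and 5 in TR2 against wt. Fitted on its own 4 libraries, TR1 against EV had 1, beside 205 lower genes of the 14881 tested. The counts over all genes also rose or fell when single libraries were left out.

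The gene of this list with the largest difference was DUSP4, a phosphatase that switches off ERK in the nucleus. Its normalised counts were 1961 and 1771 in EV, 2158 and 2228 in wt, 434 and 364 in TR1, and 981 and 1020 in TR2. It fell in TR1 against EV (log2 fold change -2.23, SE 0.10, limma adjusted p = 5.3e-06) and was lower than in wt in TR1 (-2.46, limma adjusted p = 1.65e-06) and TR2 (-1.13, limma adjusted p = 0.000361). SPRY1, an inhibitor that feeds back on receptor kinases, was at 152 and 151 in wt and at 74.7 and 76.1 in TR1 (log2 fold change -1.0, SE 0.16, limma adjusted p = 0.00394).

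DUSP6, the cytoplasmic ERK phosphatase, was at 58.8 and 55.9 in wt, 28.1 and 24.3 in TR1, and 19.8 and 26.0 in TR2. It was lower in TR1 than in wt (log2 fold change -1.10, SE 0.24, limma adjusted p = 0.0152), a call lost with no filter (0.0546), without wt replicate 1 (0.104) or without wt replicate 2 (0.0889). MYC was higher in wt than in EV (log2 fold change 0.87, SE 0.11, limma adjusted p = 0.0064), a call lost without EV replicate 1 (0.0713), wt replicate 1 (0.0967) or wt replicate 2 (0.0797). ETV4 had a log2 fold change of -1.0 in TR1 against EV (limma adjusted p = 0.0504). That difference passed with median centring, quantile normalisation or a pseudocount of 10. It did not pass with no trend, no filter, voom weights, the replicate block or only those 4 libraries. SPRY4 differed by no more than 0.22 on the log2 scale in any comparison, and ETV5 had at most 3 reads in a library.

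**Figure D4:**
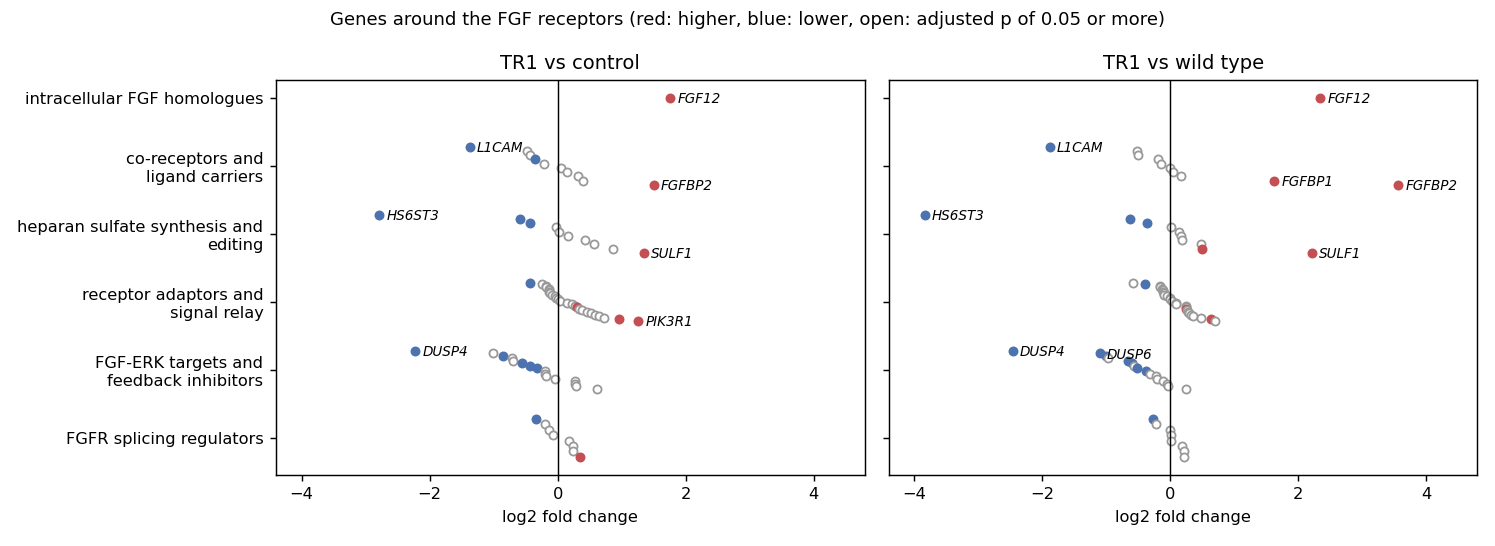
Log2 fold changes (horizontal axis) in TR1 against EV (left panel, control) and TR1 against wt (right panel) of the tested genes of 6 lists (vertical axis, 1 point a gene), with filled points for a limma adjusted p under 0.05 (red higher, blue lower). Of 16 targets and feedback inhibitors, 5 were lower in TR1 than in EV and 7 were lower in TR1 than in wt, with DUSP4 at -2.23 and -2.46.

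Few regulators of receptor splicing passed. Of 8 tested, HNRNPH1 was higher (log2 fold change 0.35, limma adjusted p = 0.0365) and RBFOX2 lower (-0.33, limma adjusted p = 0.0333) in TR1 than in EV, and the median of the list was 0.05. These calls were lost in 12 and 10 of 17 alternatives. Over all genes 4.91% were higher and 5.69% lower. The number of genes called in the list rose without TR1 replicate 1. It fell when any single EV, wt or TR2 library was left out. The number over all genes moved likewise. ESRP1, which favours the epithelial IIIb form, had log2 fold changes of 0.23 in TR1 against EV (95% interval 0.05 to 0.42, limma adjusted p = 0.106) and 0.13 in TR2 against EV (95% interval -0.06 to 0.31), neither of which passed. ESRP2 was lower in TR1 than in wt by a log2 fold change of -0.27 (limma adjusted p = 0.0303), a call lost in 11 of 17 alternatives.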

How the data were processed

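RNA from 8 libraries in 4 groups of 2 was measured by strand-specific sequencing. TopHat, HTSeq and the build hg38 are named, per the submitters' processing notes, without versions or roles. The deposited table holds log2 values of normalised counts with a pseudocount of 1, made by the authors. Dividing by the step of each column gave whole reads for 100% of values within 0.01 read. All columns belonged to the 8 samples.

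Genes that reached a normalised count of 10 in 2 or more libraries (14881 of 28859) were fitted on the deposited log2 values with limma 3.58.1 (R 4.3.3) over all 8 libraries, by group, with a trended prior (4 residual degrees of freedom). P-values were adjusted within each of 6 comparisons by Benjamini-Hochberg, with a threshold of 0.05. The method was tested on simulated data. There were 17 alternatives. Named genes were the 5 members, GATA3, 6 classical targets and splicing regulators, up to 4 per pathway list past the threshold with the largest change, and 3 correlated genes a member. The members and lists were chosen with earlier results of these data known. Gene positions come from GENCODE 29. Promoters come from a table of RefSeq starts, and the FGFR1 promoter was not analysed here.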

Additional observations from a re-analysis of the deposited data

How the results depend on the processing

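The number of the 5 members past the threshold was the same under every tried change of prior trend, filter, scaling, pseudocount, read weights and replicate block: with the replicate block it was 1 in wt against EV, 2 in TR1 against EV, 0 in TR2 against EV, 3 in TR1 against wt, 2 in TR2 against wt and 0 in TR2 against TR1. Fitting only the groups compared gave 5 in wt against EV, 3 in TR2 against EV and 1 in TR1 against wt. With each library left out in turn the counts ran from 0 to 5 in wt against EV, 2 to 3 in TR1 against EV, 0 to 3 in TR2 against EV, 1 to 4 in TR1 against wt, 1 to 2 in TR2 against wt and 0 to 2 in TR2 against TR1. A group left with 1 library was assumed to vary like the others. Of 510 member values under the alternatives, 472 kept their side of the threshold, 12 lost the call, 26 gained it and 0 were reversed.

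Replicates with the same number deviated together little (correlations of deviations between -0.090 and 0.148 over the 6 pairs of groups). The highest was for TR1 with TR2. The numbers were not taken as pairs.

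Over all genes the counts moved more. Fitting only the groups compared gave 1313 in place of 251 in wt against EV, 483 in place of 1578 in TR1 against EV, 2115 in place of 137 in TR2 against EV, 1042 in place of 2229 in TR1 against wt, 2971 in place of 780 in TR2 against wt and 59 in place of 181 in TR2 against TR1. Leaving out single libraries gave 49 to 1758, 604 to 5170, 18 to 2747, 859 to 4754, 226 to 2114 and 29 to 1577 in the same order. In TR2 against EV, no filter gave 236 and median centring 253, and centring turned the split from 78 higher and 59 lower to 111 higher and 142 lower. In TR2 against TR1, no trend gave 114 and no filter 317. The cause was not tested. With 2 libraries a group, small differences such as those of FGFR4 and FGFRL1 are within what these data can leave undecided.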
